A study of Mus musculus with 8 samples.

Results

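Cadherins and protocadherins are membrane proteins through which cells adhere to one another and sort. The members were the array probes whose accession maps to a mouse gene symbol beginning with Cdh or Pcdh and a digit, or with Pcdha, Pcdhb or Pcdhg. They were 91 of 41174 probes and stood for 64 genes. RNA came from microdissected medial ganglionic eminence (MGE) of C57BL/6 mice at embryonic day 13.5, with 4 WT and 4 Nkx2-1cKO samples, each on its own 1-colour Agilent array. The labels give the WT genotype as Nkx2-1flox/+;Olig2tva-cre- and the mutant genotype as Nkx2-1flox/+;Olig2tva-cre+, so all samples carried a floxed Nkx2-1 allele and only the mutants carried Cre. The Cre is expressed from Olig2 regulatory sequence, so recombination is limited to cells with a history of Olig2 expression. The mutant label is heterozygous, whereas the study's methods describe a conditional mutant made with a strain homozygous for the floxed allele. Nkx2-1 signal in the mutants was 1.24% of WT, and which genotype they carried was not tested. Nothing in the labels says whether samples were separate embryos or pools, so p-values measure the spread between these samples.

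Classical cadherins bind calcium and join cells of like kind, and their cytoplasmic tails hold catenins that reach the actin cytoskeleton. Type I cadherins such as Cdh2 adhere strongly, and type II cadherins such as Cdh8 and Cdh11 mark regions and nuclei of the developing brain. Delta protocadherins act in cell sorting, migration and axon growth. The clustered protocadherins Pcdha, Pcdhb and Pcdhg lie in tandem on one chromosome, and single neurons choose among their promoters, which gives a neuron a surface identity. Cortical interneurons, many of which are born in the MGE, require the Pcdhg cluster for survival.

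The arrays lay on 2 slides, each with 2 WT and 2 Nkx2-1cKO samples. On single arrays, 71.1% to 79.5% of all probes stood well above background. Signal is given as the log2 of the processed intensity minus that of the 75th percentile of the array. Nkx2-1 itself had log2 signals of 1.87, 1.95, 1.82 and 1.85 in WT and of -4.26, -4.58, -4.66 and -4.35 in the Nkx2-1cKO, so that the log2 fold change was -6.34 (standard error, SE, 0.11 and adjusted p = 4.68e-09 in limma). Of 17 MGE lineage markers, a list that includes Nkx2-1 itself, 12 were lower in the Nkx2-1cKO. Of 16 markers of the lateral and caudal ganglionic eminences 8 were higher. Summed on a linear scale relative to the 75th percentile of the array, the first list gave 80.95 to 86.22 in WT and 28.17 to 30.05 in the Nkx2-1cKO, and the second 63.65 to 74.93 and 107.26 to 116.17. Mesenchyme markers summed to between 1.6 and 7.99 in WT and between 1.24 and 1.92 in the Nkx2-1cKO on that scale. These ranges overlapped. Of the 10 markers 1, Pdgfra, was called lower, and log2 fold changes in the list ran from -2.45 to 0.70. None of 10 endothelial, 6 pericyte or 10 microglia markers passed the threshold. Of 12 markers of postmitotic neurons 2 were higher, the neurofilament genes Nefl at a log2 fold change of 0.85 (adjusted p = 0.0145 in limma) and Nefm at 0.75 (adjusted p = 0.0237 in limma). The part of these shifts in the member values was not tested.

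Among the cadherins and protocadherins, 1 probe of 87 tested was called at an adjusted p of 0.05 in limma, against 1.04% of all 31288 tested probes. This was a probe for Cdh20, a type II classical cadherin, which was higher in the Nkx2-1cKO. Of all probes 0.422% were called higher and 0.614% lower, and no member probe was called lower. At an unadjusted p under 0.05, which 8.61% of all probes reached, 3 member probes were higher and 12 lower. The tested probes stood for 61 genes, each represented by its tested probe of highest mean signal, and Cdh17, Cdh19 and Pcdhb1 were on the arrays but on none well above background. Of the 61, 1 was called, against 1.34% of all genes with a symbol (0.491% higher and 0.851% lower). At an unadjusted p under 0.05, 12 of the 61 genes were listed, 2 higher and 10 lower, against 9.48% of all genes. In whole tissue, fewer cells of a type and less RNA per cell cannot be told apart.

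The groups did not overlap on 10 member probes, 3 higher and 7 lower in the Nkx2-1cKO, against 6.4% of all probes (2.29% higher and 4.11% lower). By gene these were 2 higher and 6 lower, against 6.84% of all genes in both directions together. The higher genes were Cdh20 and Pcdh10, and the lower ones were Cdh8, Pcdh8, Pcdhb4, Pcdhb14, Pcdhb16 and Pcdhb17. The log2 fold change was below 0 in 50 of the 61 genes, against 50.4% of all genes, but in 20 when the raw spot signal was corrected for its local background by the normexp model. The median over the 61 was -0.19, the range was -0.81 to 0.65, and 53 genes lay within 0.5 of 0, while the median over all genes was -0.002.

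That tilt depended on the processing. With normexp the median of the 61 was 0.09, against 33.0% of all genes below 0 and an all-gene median of 0.085. Quantile normalization left 40 below 0 and centring on the median left 39. Centring also moved the median of all genes to 0.118, and 50 of the 61 lay below that value. Without WT replicate 1, 47 were below 0.

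**Figure D1:**
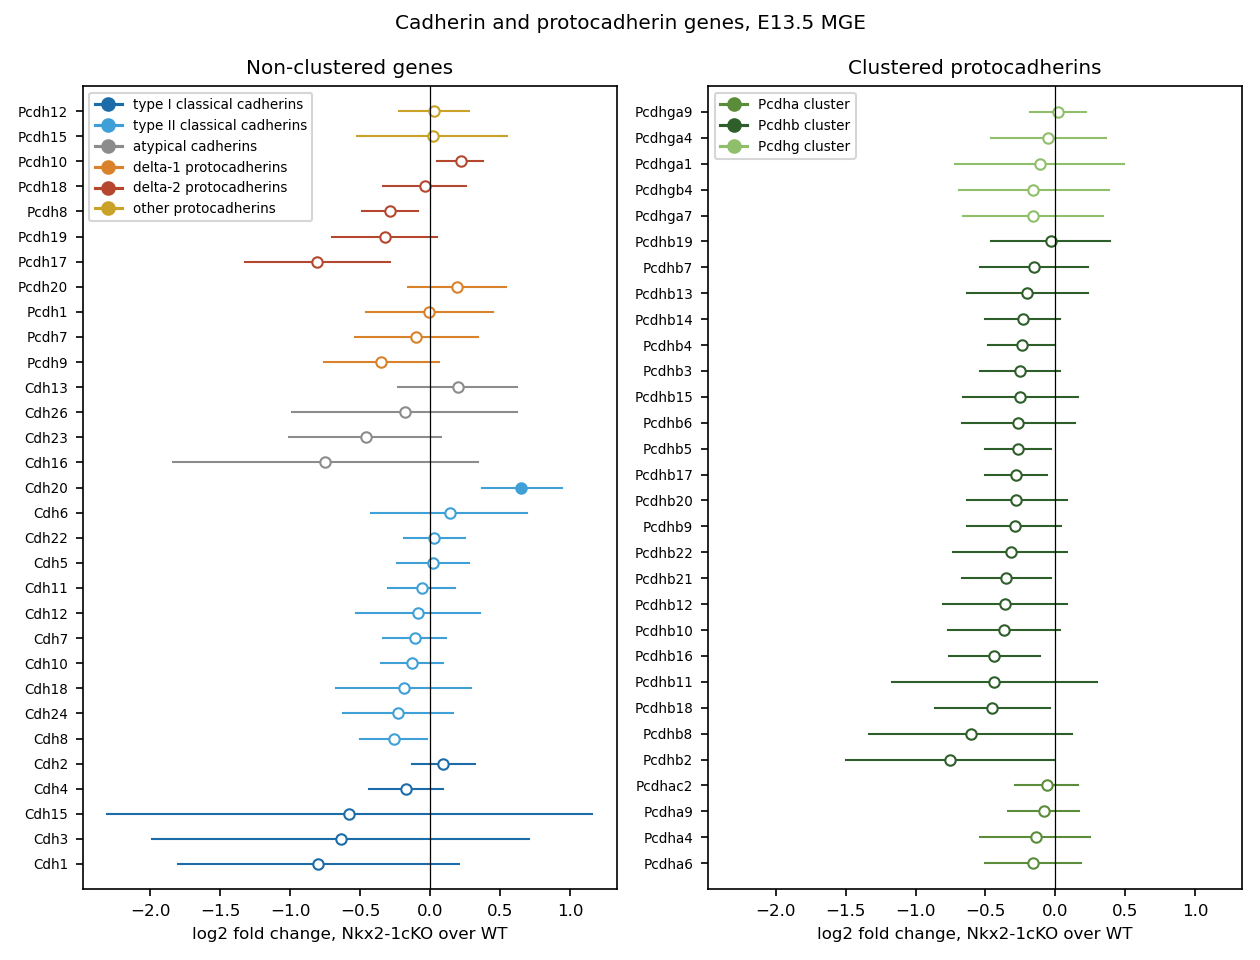
Log2 fold change of Nkx2-1cKO over WT for the 61 tested genes, grouped by class and drawn with the 95% interval from limma. The filled point is Cdh20 at 0.65, the 1 gene past the threshold, and open points are the other genes. Intervals are widest for Cdh15, Cdh3, Cdh1 and Cdh16.

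The promoters of 4 non-clustered genes are shown because Cdh20 was the called gene, the arrays of Pcdh10 and Pcdh8 did not overlap between groups, and Pcdh17 had the lowest log2 fold change among members. Each line holds the 250 bases upstream of the annotated start, on the strand of the gene, from RefSeq on GRCm38.p6. Cdh20 is at chr1:104768270-104768519 (+), Pcdh10 at chr3:45378148-45378397 (+), Pcdh17 at chr14:84443313-84443562 (+) and Pcdh8 at chr14:79771313-79771562 (-). Capitals mark matches to the searched motifs on either strand.
Cdh20: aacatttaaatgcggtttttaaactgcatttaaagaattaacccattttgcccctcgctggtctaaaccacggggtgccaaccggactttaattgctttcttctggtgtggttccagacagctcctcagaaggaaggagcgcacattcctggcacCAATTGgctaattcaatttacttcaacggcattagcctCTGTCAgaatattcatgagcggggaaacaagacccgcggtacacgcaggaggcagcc
Pcdh10: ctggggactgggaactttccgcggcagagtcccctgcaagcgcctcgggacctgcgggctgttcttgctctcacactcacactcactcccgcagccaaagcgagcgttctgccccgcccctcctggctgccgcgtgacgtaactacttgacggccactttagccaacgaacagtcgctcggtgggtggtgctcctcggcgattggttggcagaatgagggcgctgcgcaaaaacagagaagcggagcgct
Pcdh17: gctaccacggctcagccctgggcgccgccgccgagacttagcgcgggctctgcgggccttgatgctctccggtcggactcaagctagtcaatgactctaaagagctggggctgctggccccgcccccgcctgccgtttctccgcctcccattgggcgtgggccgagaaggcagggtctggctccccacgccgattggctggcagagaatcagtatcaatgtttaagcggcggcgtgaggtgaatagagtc
Pcdh8: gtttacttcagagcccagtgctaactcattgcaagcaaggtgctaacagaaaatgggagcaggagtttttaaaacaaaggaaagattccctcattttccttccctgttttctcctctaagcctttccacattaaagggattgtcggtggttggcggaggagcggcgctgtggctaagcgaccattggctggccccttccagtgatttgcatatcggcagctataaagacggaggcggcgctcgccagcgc
The motifs were CAAGTG, a core bound by NKX2-1, TAATTA, bound by LHX homeodomains, TGACAG, bound by MEIS factors, and the E-box CANNTG, which every CAAGTG match also fits. The Cdh20 window held 1 MEIS core, read on the opposite strand, and 1 E-box, and the other windows held no match. Over the 25 windows of the 22 members in the promoter table, 12.0% held CAAGTG, 4.0% TAATTA, 16.0% TGACAG and 52.0% an E-box. The shares of all 32851 windows of that length were 11.6%, 4.84%, 15.9% and 66.2%. A match is a description of letters and no evidence of binding.

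Cdh20 had log2 signals of -0.92, -0.73, -0.38 and -0.50 in WT and of 0.17, -0.08, 0.02 and -0.02 in the Nkx2-1cKO. Every mutant array was above every WT array, and the WT arrays were the more spread. The means were -0.63 ± 0.24 and 0.02 ± 0.11 (SD, n = 4 each), and the log2 fold change was 0.65 (SE 0.13 and adjusted p = 0.047 in limma), or 1.57-fold (p = 0.0286 by an exact permutation of the 8 arrays, two-sided, which is the minimum for 4 against 4). The log2 fold change was 0.60 on slide 1 and 0.71 on slide 2, and with slide as a block the adjusted p was 0.0354.

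A dimmer Cdh20 probe did not show this difference. Its log2 signals were -1.80, -2.70, -1.82 and -2.47 in WT and -2.38, -1.90, -2.37 and -1.54 in the Nkx2-1cKO. These overlapped, with a log2 fold change of 0.15 (SE 0.26, 95% interval -0.42 to 0.72). In both groups the arrays of slide 1 were above those of slide 2 on it, by 0.72 on average. The call on the brighter probe held in 4 of 18 alternatives, and leaving out either any one mutant array or any WT array other than replicate 3 ended it, with adjusted p from 0.0748 to 0.164. When its probes were averaged, Cdh20 had a log2 fold change of 0.40 (adjusted p = 0.432).

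The other type II cadherins had log2 fold changes between -0.26 and 0.14, and the median over the 11 tested was -0.09. Cdh8, which is known for patterned expression in the embryonic brain, had log2 signals of -0.58, -0.89, -0.64 and -0.92 in WT and of -1.04, -0.94, -1.13 and -0.98 in the Nkx2-1cKO. All mutant arrays were below all WT arrays, but the lowest WT and highest mutant arrays almost met, and the log2 fold change of -0.26 did not pass the threshold (SE 0.11 and adjusted p = 0.535 in limma). Cdh11, first described in bone, gave log2 signals of 1.35, 1.13, 1.30 and 1.60 in WT and of 1.22, 1.24, 1.25 and 1.43 in the Nkx2-1cKO. These overlapped, with a log2 fold change of -0.06 (95% interval -0.30 to 0.18). Its other probes had log2 fold changes of -0.14 and -0.11, and the last of these lay 0.85 higher on slide 1 than on slide 2.

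Cdh20 and Cdh7 lie on the same chromosome with 21 protein-coding genes between them in the RefSeq order, and Cdh7 had a log2 fold change of -0.11. Cdh8, Cdh11 and Cdh5 are direct neighbours, with log2 fold changes of -0.26, -0.06 and 0.02. Cdh5 is the endothelial VE-cadherin. Cdh6, Cdh10, Cdh12 and Cdh18 share a chromosome as well, and their log2 fold changes were 0.14, -0.13, -0.09 and -0.19. A second, dimmer Cdh18 probe did not overlap between groups, with a log2 fold change of -0.75 (SE 0.36 and adjusted p = 0.601 in limma), and -0.40 without WT replicate 1. Cdh5, Cdh6, Cdh7, Cdh10, Cdh12 and Cdh18, like other members below that the naming rule does not cover, were chosen after their values were seen.

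**Figure D2:**
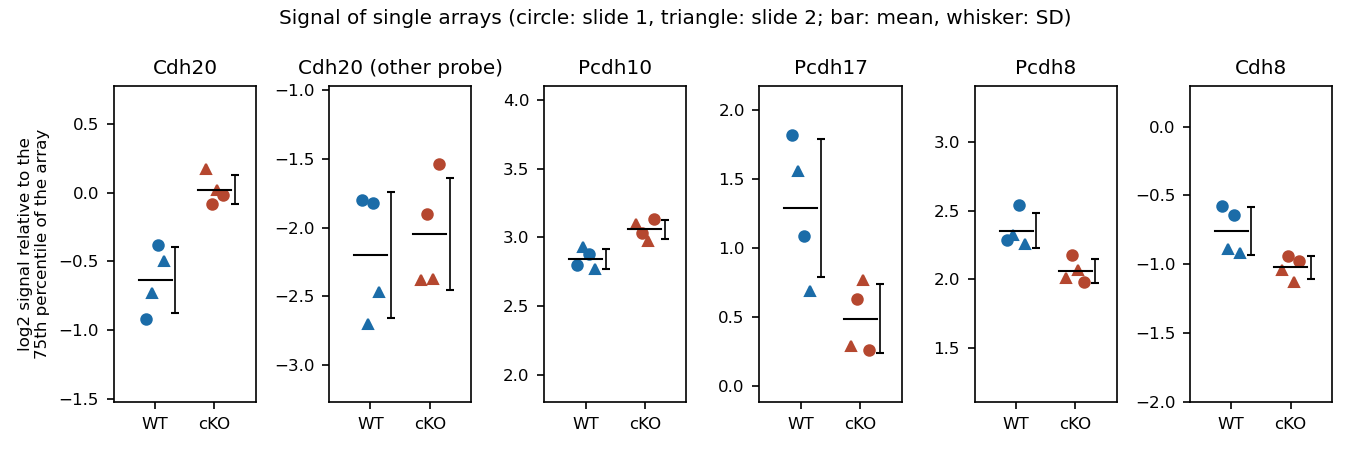
Log2 signal of single arrays for the brightest probe of Cdh20, the other Cdh20 probe, and Pcdh10, Pcdh17, Pcdh8 and Cdh8, each axis spanning the same log2 range. Circles lie on slide 1 and triangles on slide 2, lines are means and whiskers SD of 4 arrays. The groups separate for Cdh20 (first probe), Pcdh10, Pcdh8 and Cdh8 and overlap for the other Cdh20 probe and Pcdh17.

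Of the 5 type I cadherins, Cdh2 and Cdh4 had narrow intervals and Cdh1, Cdh3 and Cdh15 wide ones, and none was called. Cdh2, N-cadherin, holds the neuroepithelium together at the ventricle, and its log2 signals were 1.98, 1.61, 1.66 and 1.64 in WT and 1.93, 1.72, 1.81 and 1.82 in the Nkx2-1cKO. The ranges overlapped, and the log2 fold change of 0.09 had a 95% interval of -0.13 to 0.32. Cdh4, R-cadherin, gave 1.71, 1.26, 1.47 and 1.30 in WT and 1.07, 1.43, 1.27 and 1.26 in the Nkx2-1cKO. These overlapped too, with a log2 fold change of -0.17 (95% interval -0.44 to 0.09), and its other probes had log2 fold changes of -0.25 and -0.35.

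The median log2 fold change of the type I class was -0.58, and it was -0.08 without WT replicate 1 and 0.08 with normexp. Cdh1, E-cadherin of epithelia, had a log2 fold change of -0.80 (SE 0.45 and adjusted p = 0.640 in limma), and -0.46 without WT replicate 1. Cdh3, P-cadherin, had -0.64 and -0.04 without that array, and was well above background on 4 WT and 2 mutant arrays. The atypical Cdh16 passed the filter in the same way, with a log2 fold change of -0.75 and of -0.27 without it.

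The 12 dimmest member probes had a mean log2 signal under -5.03, and WT replicate 1 stood apart on them. It was above the median of the other arrays by 1.6 at the median probe and was above it on 11 of the 12. Over all 6258 dim probes its median deviation was 1.18, and on the other arrays the dim members deviated by -0.34 to 0.2. On brighter members the same array deviated by 0.25. They were the representative probes of Cdh1, Cdh3, Cdh12, Cdh16, Pcdh15, Pcdhb11 and Pcdhgb4 and a dimmer probe each of Cdh18, Pcdh12, Pcdhb19, Pcdhga4 and Pcdhga9.

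Cdh15, the muscle cadherin, was the most variable of the tested members. Its log2 signals were -3.51, -1.30, -2.65 and -3.38 in WT and -3.97, -3.95, -0.81 and -4.43 in the Nkx2-1cKO. One array in each group was far above the rest of its group, and the log2 fold change of -0.58 had a 95% interval of -2.31 to 1.16. The 4 tested atypical cadherins, Cdh13, Cdh16, Cdh23 and Cdh26, lay between -0.75 and 0.20 on the log2 fold change scale, with no call. Cdh13, a cadherin tethered by a lipid anchor, had 1.26, 1.83, 1.88 and 1.72 in WT and 1.49, 1.81, 2.34 and 1.84 in the Nkx2-1cKO. The groups overlapped, and the log2 fold change was 0.20 (95% interval -0.23 to 0.62). It was 0.04 without mutant replicate 3 and 0.06 without WT replicate 1.

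The 5 delta-2 protocadherins held the lowest log2 fold change of the 61 genes, that of Pcdh17, and the highest after Cdh20, that of Pcdh10, with a median of -0.29. Pcdh17, which acts at synapses of the basal ganglia, had log2 signals of 1.82, 1.56, 1.09 and 0.69 in WT and of 0.29, 0.63, 0.77 and 0.26 in the Nkx2-1cKO. WT replicate 4 lay within the mutant range and the other WT arrays lay above it. The log2 fold change of -0.81 (SE 0.23 and adjusted p = 0.258 in limma) had a 95% interval of -1.32 to -0.29, with an exact permutation p of 0.0571. It was -1.02 on slide 1 and -0.59 on slide 2. With normexp it was -0.81 again and passed the threshold (adjusted p = 0.0228), the single change of that kind among the named members, and over 18 alternatives its adjusted p ranged from 0.0228 to 0.58.

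Pcdh8, which is known as an activity-regulated gene of neurons, had log2 signals of 2.29, 2.32, 2.54 and 2.26 in WT and of 2.01, 2.18, 2.07 and 1.98 in the Nkx2-1cKO. All mutant arrays were below all WT arrays, on both slides. The log2 fold change of -0.29 did not pass the threshold (SE 0.09 and adjusted p = 0.295 in limma). Pcdh8 and Pcdh17 lie on one chromosome with 1 protein-coding gene between them, and Pcdh20 and Pcdh9 follow with 2 genes between Pcdh17 and Pcdh20. Their log2 fold changes in that order were -0.29, -0.81, 0.19 and -0.35.

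Pcdh10, which guides striatal axon growth, was measured by 3 probes. The brightest gave log2 signals of 2.80, 2.93, 2.88 and 2.77 in WT and of 3.1, 3.03, 2.97 and 3.13 in the Nkx2-1cKO. All mutant arrays were above all WT arrays, with a log2 fold change of 0.22 (SE 0.07 and adjusted p = 0.394 in limma). A second probe gave 0.28, 0.59, 0.61 and 0.45 in WT and 0.78, 0.92, 0.91 and 0.89 in the Nkx2-1cKO. The groups were again apart, with a log2 fold change of 0.39 (SE 0.09 and adjusted p = 0.128 in limma). The third overlapped at 0.11. The probes are annotated to different RefSeq transcripts of the gene, and none passed the threshold.

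Pcdh19, an X-linked gene linked to epilepsy, had log2 signals of 3.22, 2.65, 2.67 and 2.41 in WT and 2.14, 2.56, 2.42 and 2.53 in the Nkx2-1cKO. These overlapped, with a log2 fold change of -0.32 (95% interval -0.70 to 0.05), and -0.16 without WT replicate 1. The second Pcdh19 probe had a log2 fold change of -0.34. The 4 tested delta-1 protocadherins, Pcdh1, Pcdh7, Pcdh9 and Pcdh20, had log2 fold changes between -0.35 and 0.19 on their brightest probes, with no call. The other Pcdh9 probes had log2 fold changes of -0.46 (SE 0.16 and adjusted p = 0.439 in limma) and -0.06. Of the remaining protocadherins, Pcdh12, which is expressed in endothelium, had 0.03, and Pcdh15, a part of the tip link of hair cells, had 0.02. A second, dimmer Pcdh12 probe had a log2 fold change of -0.66 (SE 0.44 and adjusted p = 0.662 in limma), and -0.20 without WT replicate 1.

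The 21 tested Pcdhb genes, of 22 in the reference, had log2 fold changes between -0.75 and -0.03 on their brightest probes. Of these, 21 of 21 were below 0, against 9 of 21 with normexp. Pcdhb19, at -0.03, had a second, dimmer probe at -0.73 (SE 0.42 and adjusted p = 0.645 in limma), and -0.35 without WT replicate 1. Normexp moved the median of all genes to 0.085, and the Pcdhb median under it was 0.06, with 12 of 21 genes below the all-gene median. Pcdhb1 was not well above background on any array. The median log2 fold change was -0.28 and none was called, with a lowest adjusted p of 0.381 for Pcdhb16. These genes lie side by side, their sequences are alike, and the files do not give which paralogs a probe can bind, so the 21 values may not be independent. Quantile normalization left 19 below 0, centring on the median 20, and the lowest count on leaving out 1 array was 20.

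The mean log2 signal over the 21 genes was -2.34, -2.71, -2.43 and -2.45 in WT replicates 1 to 4 and -2.73, -2.61, -2.96 and -2.93 in the Nkx2-1cKO. Across slides these array means overlapped, since WT replicate 2 on slide 2 lay below mutant replicate 2 on slide 1. Within each slide both mutant means lay below both WT means with this scaling. On slide 2, WT replicate 2 at -2.71 and mutant replicate 1 at -2.73 almost met. Pcdhb16 had log2 signals of -2.12, -2.67, -2.52 and -2.65 in WT and -2.87, -2.77, -3.06 and -3.02 in the Nkx2-1cKO. All mutant arrays were lower, with a log2 fold change of -0.44 (SE 0.15 and adjusted p = 0.381 in limma), but its other probe overlapped at -0.29, and with normexp the value was -0.03. Pcdhb17, Pcdhb4 and Pcdhb14 also did not overlap, with log2 fold changes of -0.28, -0.24 and -0.23. On the other Pcdhb17 probe the groups overlapped, with a log2 fold change of -0.28 and a larger slide difference of 0.36.

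The largest differences within the cluster came from genes whose arrays were scattered. Pcdhb2 gave log2 signals of -3.88, -4.39, -4.66 and -3.00 in WT and -4.87, -5.00, -4.57 and -4.50 in the Nkx2-1cKO. WT replicate 3 lay within the mutant range, and the log2 fold change was -0.75 (95% interval -1.50 to -0.01, adjusted p = 0.574, limma), and -0.43 without WT replicate 4. Pcdhb8 gave -3.88, -4.06, -3.82 and -3.41 in WT and -3.72, -4.00, -5.33 and -4.55 in the Nkx2-1cKO. Mutant replicates 1 and 2 lay within the WT range, and the log2 fold change was -0.60 (95% interval -1.33 to 0.12), and -0.30 without mutant replicate 3. Pcdhb18 had a log2 fold change of -0.45 with overlapping groups.

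**Figure D3:**
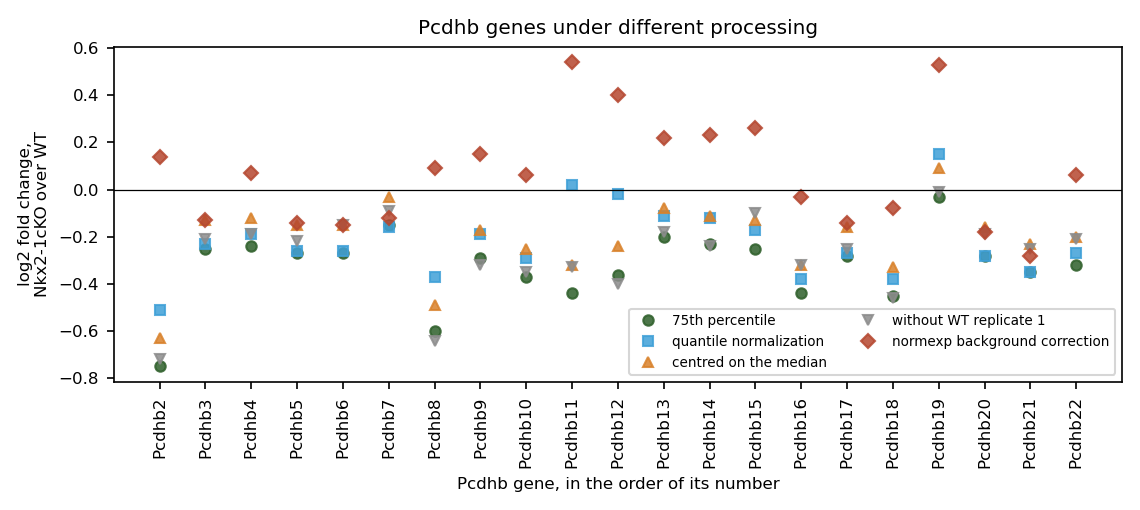
Log2 fold change of Nkx2-1cKO over WT for the 21 tested Pcdhb genes under 5 ways of processing. With scaling to the 75th percentile (circles) 21 of 21 lie below 0, and with normexp (diamonds) 9 of 21 do.

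None of the Pcdha or Pcdhg genes was called. The 4 tested Pcdha genes lay between -0.16 and -0.06 on the log2 fold change scale. Pcdha6 had -0.16, Pcdha4 -0.14 and Pcdha9 -0.08, with 95% intervals that included 0. The 5 tested Pcdhg genes lay between -0.16 and 0.02, led by Pcdhga7 and Pcdhgb4 at -0.16 and Pcdhga1 at -0.11. With normexp, 1 of 4 Pcdha and 1 of 5 Pcdhg genes were below 0, with medians of 0.12 and 0.53. The genes of each of these clusters share their last exons, so a probe there reads many isoforms. Which isoforms each probe reads was not determined, so a value may not belong to the named gene alone. The 4 Pcdhga9 probes had WT mean log2 signals of 4.89, 4.60, -0.43 and -5.00. Their log2 fold changes lay between -0.11 and 0.04, with 0.02 on the brightest. No matched probe was found for 10 Pcdha and 17 Pcdhg genes, which were not analysed here.

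Slide differences were also read on the members. In both groups, every slide 1 array was above every slide 2 array on 17 of 87 member probes and below on 2, against 15.4% and 13.4% of all probes. The mean slide difference exceeded the genotype difference on 38 of the 87 (43.7%), against 57.9% of all probes. Examples were Pcdh1, with a slide difference of 0.56 and a genotype difference of -0.01 on the log2 scale, and Cdh26 with 0.94 and -0.18. For the brighter Cdh20 probe it was -0.09 against a genotype difference of 0.65. Each slide held both genotypes, so the within-slide values above are free of the slide difference.

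**Figure D4:**
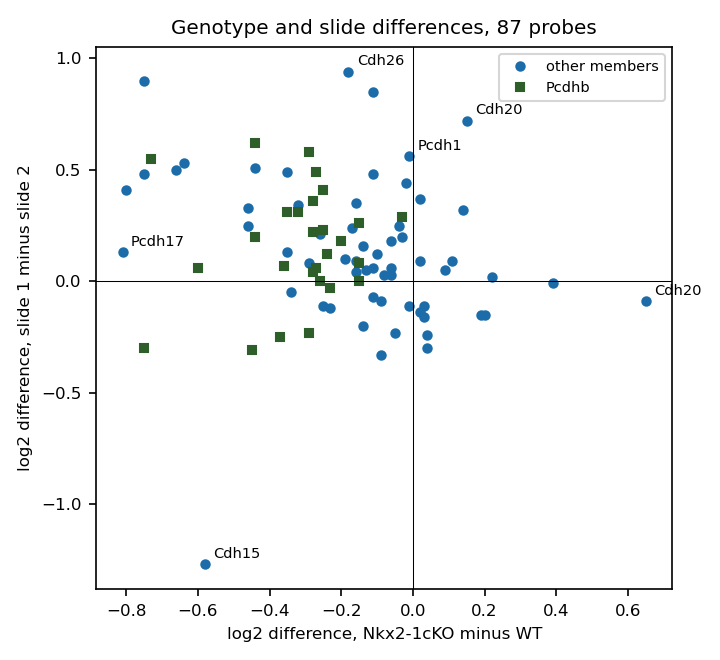
Log2 difference between slides (mean of both groups) against the log2 difference between genotypes for the 87 member probes. Pcdhb probes are squares. Cdh20 lies at 0.65 and -0.09, with its other probe at 0.15 and 0.72.

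No list of partners or relatives of the cadherins held a called gene. Of 11 tested catenins and adaptors, which tie cadherin tails to actin, none was called and the median log2 fold change was 0.00, with Pkp4 of lowest p at -0.26 (adjusted p = 0.577, limma). Of 5 nectins and afadin none was called, with a median of 0.02 and Nectin3, an adhesion partner at the same junctions, at 0.29 (adjusted p = 0.367, limma). Among 14 other genes of the cadherin superfamily none was called, with a median of -0.26 and Fat4, a giant cadherin of planar polarity, at -0.58 (adjusted p = 0.517, limma). Neither the 12 genes of the WAVE complex and protocadherin signalling (median -0.05, Abi2 -0.24, adjusted p = 0.581) nor the 10 for shedding and clustered promoter control (median -0.05, Stag2 -0.30, adjusted p = 0.580) held a call in limma. At an unadjusted p under 0.05, which 9.48% of all genes reached, the 5 lists together held Pkp4, Nectin3, Nectin4 and Fat4.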

How the data were processed

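RNA of 4 WT and 4 Nkx2-1cKO MGE samples was read on 1-colour Agilent arrays. The authors deposited Feature Extraction output (version 10.7.3.1 per the file headers, 10.1 in the submitters' processing notes), whose spot intensities are background-subtracted within an array and not scaled between arrays. What followed is not given in the sources used here.

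From these intensities, control spots and flagged outliers were dropped, log2 values were set relative to each array's 75th percentile, and spots of a probe were averaged. Accessions matched 24844 probes to 17178 symbols of a RefSeq table (GRCm38.p6), which gave names and gene order only, while the promoter windows came with their own coordinates. Members with no matched probe numbered 29 of 93. A probe was tested if it was well above background on 4 or more of the 8 arrays (31288, with 50 missing values), which left out Cdh17, Cdh19, Pcdhb1 and 1 Cdh23 probe. No spot was saturated. Tests used lmFit and eBayes with a trend in limma 3.58.1 (R 4.3.3), Benjamini-Hochberg adjustment over all tested probes and a threshold of 0.05. On simulated data over 31288 probes for this comparison, the fit called 63.5% of 200 probes given a log2 change of 1, and 10 of its 137 calls were false. That change was larger than any among the members, whose log2 fold changes ran from -0.81 to 0.65. The simulated noise also held no slide structure, so the rate does not describe changes of the members' size. The number of arrays limits the precision.

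Named members are those called, those whose groups did not overlap on the brightest probe, the 8 brightest non-clustered genes and the 3 largest changes in each cluster. Others are named after their values were seen, as were the slide, dim-probe, neighbour and promoter descriptions. The members and lists were chosen with earlier results of these data known. Alternatives were quantile normalization, median centring, normexp (offset 50, on the median signal), no filter, a filter on the mean signal above the lowest 0.3, slide or replicate number as a block, no trend, array weights, averaging the probes of a gene, and omitting single arrays.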

Additional observations from a re-analysis of the deposited data

Results flagged for a closer look

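In 3 of 46 groups of 4 arrays of named members, 1 array stood apart from the others, and chance alone gives about 1 in 20. Cdh11 had a log2 signal of 1.43 on Nkx2-1cKO replicate 4, where the other mutant arrays lay between 1.22 and 1.25. Cdh2 had a log2 signal of 1.98 on WT replicate 1, with the other WT arrays between 1.61 and 1.66. Pcdhgb4 had a log2 signal of -5.15 on WT replicate 1, with the other WT arrays between -5.76 and -5.65. Without WT replicate 1 the log2 fold change was 0.18 for Cdh2 and -0.02 for Pcdhgb4.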

How the results depend on the processing

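The count of 1 member probe called higher, and of 1 member gene called, was 0 with quantile normalization, median centring, no filter on dim probes, the replicate block and no variance trend. The count of probes was also 0 with normexp, where 1 member probe was called lower and the 1 gene called was Pcdh17. The count of genes was 0 with the mean of a gene's probes. Leaving out each array gave 0 to 1 called higher, 0 to 0 called lower and 0 to 1 genes. Cdh20 kept its direction in 18 of 18 alternatives, between 0.40 and 0.77, with adjusted p from 0.0196 to 0.432, and was past the threshold in 4. Pcdhb genes below 0 numbered 9 and member genes below 0 numbered 20 with normexp, against 21 and 50. Across all probes, 67 were called higher and 91 lower with normexp, and 8 and 65 with the replicate block, against 132 and 192. Same-numbered arrays, which the replicate block joined, correlated between -0.481 and -0.194. Each such pair lay on different slides, and the slide difference was not removed before correlating. Differently numbered WT and mutant arrays on different slides gave -0.449 to -0.231. These correlations therefore cannot tell whether the numbers pair the samples.

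Among the 23 named members, 12 changed sign under at least 1 alternative. With normexp, Cdh2 was -0.02, Pcdha4 0.38, Pcdha6 0.19, Pcdha9 0.04, Pcdhb14 0.23, Pcdhb2 0.14, Pcdhb4 0.07, Pcdhb8 0.09, Pcdhga1 0.58, Pcdhga7 0.53 and Pcdhgb4 0.66. With quantile normalization, Pcdha4 was 0.03, Pcdhga1 0.18, Pcdhga7 0.11 and Pcdhgb4 0.27. With centring, Cdh11 was 0.06, Pcdha9 0.04 and Pcdhga1 0.01. Pcdhga1 was 0.05 with array weights and 0.04 without WT replicate 1, and Cdh11 was 0.03 without WT replicate 4. Leaving out each array gave -0.13 to 0.03 for Cdh11 and -0.31 to 0.04 for Pcdhga1. The cause was not tested. Dim probes, close to background, limit the values of Cdh1, Cdh3, Cdh16 and Pcdhgb4.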
